A study of Mus musculus with 6 samples.

Results

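miR-31 and miR-210 were followed across the 6 samples of a SYBR Green quantitative RT-PCR panel of mouse CD8+ T cells. They are the 2 mouse-named guide-strand assays of these names, out of 345 assays in the deposited delta Ct (dCt) table, and were chosen by name. The T cells carried the pMel-1 transgene, which encodes a receptor against gp100, a melanoma antigen, and were cultured for 3 days. In the DC-primed group (3 samples) bone marrow-derived dendritic cells matured with lipopolysaccharide activated them. In the B cell-primed group (3 samples) splenic B cells loaded with the hgp100(25-33) peptide did so. The samples come from 3 rounds, with both groups in every round. Whether separate animals were used for the rounds is not stated in the labels, so p-values cover only the spread among these samples, which may be technical. How T cells were separated from the priming cells is not stated either, and fewer cells of a type and less RNA per cell cannot be told apart. The sources used here give neither the age of the animals nor the oxygen level of the cultures.

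MicroRNAs are short RNAs that guide Argonaute proteins to messenger RNAs, mainly through base pairing of the seed, bases 2 to 8. miR-31 is raised in CD8+ T cells by T cell receptor signalling through calcium and NFAT, and in mice it has been tied to CD8+ T cell dysfunction in chronic infection. miR-210 is the best known microRNA of the hypoxia response. Its transcription is raised by hypoxia-inducible factors, it lowers the iron-sulphur scaffold protein ISCU in mitochondria, and in mouse T cells it rises with activation and acts back on Hif1a.

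The sequences below, from RefSeq on GRCm38.p6, are those of the 2 members and of the opposite strand of the miR-31 hairpin, which the panel also reads. They are given 5′ to 3′ with the seed in capitals.
miR-31 (miR-31-5p): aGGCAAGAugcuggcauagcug
miR-31* (miR-31-3p): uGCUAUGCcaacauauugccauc
miR-210 (miR-210-3p): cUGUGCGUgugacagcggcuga
None of the other 1678 mature mouse miRNAs in RefSeq had any of the 3 seeds as its own seed. Only seeds were compared here, so the same bases can lie elsewhere in another miRNA. The longest run of bases shared with another mature mouse miRNA was 9 for miR-31, with miR-193a-5p, and 9 for miR-210, with miR-7672-5p. The 2 members shared a run of at most 4 bases, and the GC content was 54.5% for miR-31 and 63.6% for miR-210. The arms were matched by the older naming, in which the unmarked names are the miR-31-5p and miR-210-3p strands.

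The hairpins show where each assayed strand lies, with the assayed strands in capitals. Mir31 is on the minus strand at chr4:88910557-88910662, inside the annotated span of the long non-coding RNA gene Gm49890, with the interferon gene Ifne as its left neighbour. Mir210 is on the minus strand at chr7:141221384-141221493, inside no other annotated gene and between Rassf7 and Gm51460.
Mir31: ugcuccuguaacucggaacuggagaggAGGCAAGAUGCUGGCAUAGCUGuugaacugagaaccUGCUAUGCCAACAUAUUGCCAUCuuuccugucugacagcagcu
Mir210: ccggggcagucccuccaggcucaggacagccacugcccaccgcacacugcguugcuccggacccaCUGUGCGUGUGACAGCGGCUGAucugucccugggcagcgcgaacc
The other strand of the Mir210 hairpin was not analysed here.

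Levels are given as minus dCt, in log2 units (1 unit is 2-fold, and higher values stand for more of the miRNA). dCt is the threshold cycle (Ct) minus 1 number per sample, set by the authors. Levels are compared between samples of 1 assay and not between assays, whose primers can differ in efficiency. The panel was not equally deep in all samples. Of 350 miRNA assays in the Ct table, 280 to 337 had a Ct below 35 in the DC-primed samples and 336 to 341 in the B cell-primed samples, with the lowest count in DC-primed sample 3. Both members were below 35 in all 6 samples and had no filled-in value. Across the 274 assays that met this limit, limma called 0 at an adjusted p under 0.05 (percent called 0), the smallest adjusted p being 0.228, and 24 (8.76%) had an unadjusted p under 0.05. Of 10 lymphocyte miRNAs such as miR-150, miR-155 and miR-181a, 9 to 10 were below Ct 35 in the DC-primed samples and 10 in each B cell-primed sample.

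miR-31 was lower in the DC-primed sample of rounds 1 and 2 and nearly level in round 3. Its level was -2.56, -0.24 and -0.72 in DC-primed samples 1, 2 and 3, against -0.28, 1.57 and -0.70 in B cell-primed samples 1, 2 and 3. The groups overlapped: B cell-primed samples 1 and 3 lay within the DC-primed range, and B cell-primed sample 2 stood above all others. Means were -1.17 ± 1.22 in DC-primed T cells and 0.20 ± 1.21 in B cell-primed T cells (SD, n = 3 each). Differences by round were -2.28, -1.81 and -0.02. The mean difference was -1.37 ± 0.90 (SE; limma, adjusted p = 0.792; 95% confidence interval -3.43 to 0.68), a DC-primed over B cell-primed ratio of 0.386 with an interval of 0.0928 to 1.60. Of the tested assays 42 (15.3%) were lower by 1 or more in DC-primed cells. miR-31 did not pass the test, and the two-sided exact permutation p for the group means was 0.4, where 3 samples against 3 allow no p below 0.1. The authors' deposited table gives a fold change of 0.386 and a paired p of 0.184 for miR-31.

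**Figure D1:**
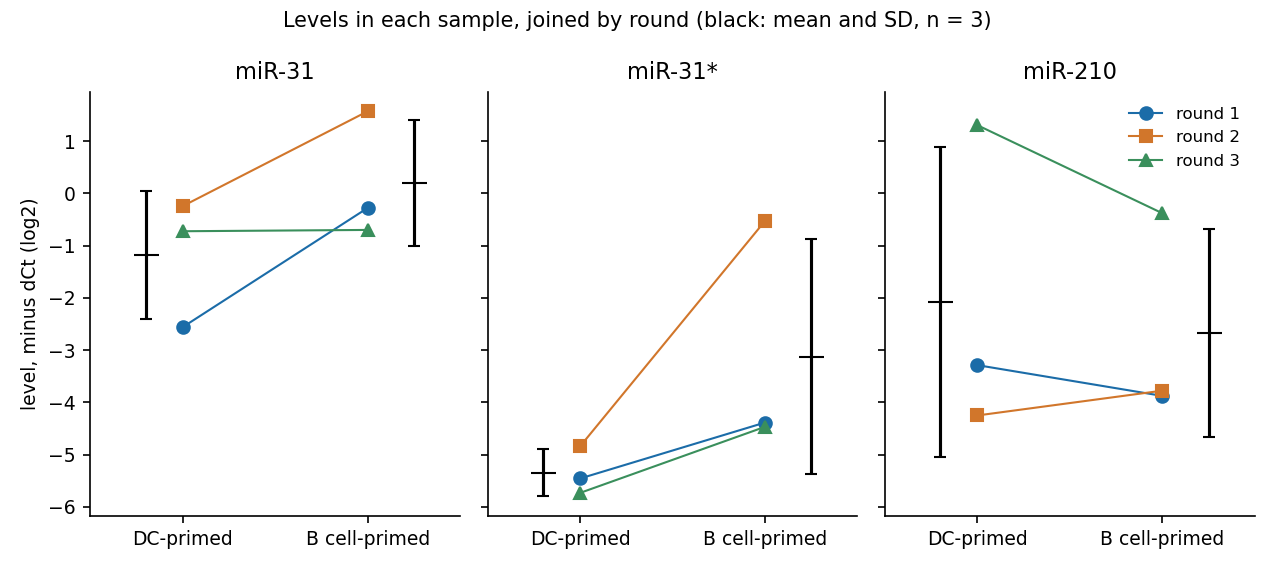
Levels as minus dCt (log2, y axis) of miR-31, miR-31* and miR-210 in DC-primed and B cell-primed samples, with lines joining samples of 1 round and black bars for the mean and SD of 3 samples. miR-31 overlaps between the groups, miR-31* does not, and miR-210 is highest in round 3 in both groups.

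Without any scaling, the miR-31 signal came later in every DC-primed sample. The raw Ct was 28.74, 28.70 and 31.18 in DC-primed samples 1, 2 and 3, against 26.63, 25.55 and 28.33 in B cell-primed samples 1, 2 and 3. The groups did not overlap, since the earliest DC-primed value lay after the latest B cell-primed one. The delay was 2.11, 3.15 and 2.85 cycles in rounds 1, 2 and 3, with means of 29.54 ± 1.42 and 26.84 ± 1.40 cycles (SD, n = 3 each; two-sided exact permutation p = 0.1, the smallest this design allows). Among the 274 tested assays 26 (9.49%) were separated in this direction, and 115 (42%) were later in DC-primed cells in every round. The median tested assay was itself 1.26 later in DC-primed cells.

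miR-31*, the other strand of the same hairpin, was lower in the DC-primed sample of every round. Its level was -5.46, -4.84 and -5.73 in DC-primed samples 1, 2 and 3, against -4.39, -0.53 and -4.47 in B cell-primed samples 1, 2 and 3. On this scale the groups did not overlap, and B cell-primed sample 2 was the high sample for this strand as for miR-31. Among tested assays 22 (8.03%) were separated in this direction. The means were -5.34 ± 0.46 and -3.13 ± 2.25 (SD, n = 3 each; exact permutation p = 0.1, two-sided, again the smallest the design allows). In raw Ct the groups overlapped for miR-31* (exact permutation p = 0.2, two-sided). The raw Ct was 31.64 to 36.19 in DC-primed and 27.65 to 32.10 in B cell-primed samples. miR-31* was not among the 274 tested assays, because its Ct of 36.19 in DC-primed sample 3 was past the limit, and the other 5 values were 27.65 to 33.30. In the fit with no Ct limit it differed by -2.22 ± 1.14 (SE; limma, adjusted p = 0.661) and did not pass. The gap between the strands, miR-31 minus miR-31*, does not depend on the per-sample number. The gap was 2.90, 4.60 and 5.01 in DC-primed samples 1, 2 and 3, against 4.11, 2.10 and 3.77 in B cell-primed samples 1, 2 and 3, and the ranges overlapped.

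miR-210 had a mean difference between the groups that was small beside its spread between rounds and was not well resolved. Its level was -3.29, -4.25 and 1.31 in DC-primed samples 1, 2 and 3, against -3.88, -3.78 and -0.38 in B cell-primed samples 1, 2 and 3. Sample 3 was the highest of its group in both groups, and the groups overlapped. Means were -2.08 ± 2.97 in DC-primed T cells and -2.68 ± 1.99 in B cell-primed T cells (SD, n = 3 each), and the differences by round were 0.59, -0.47 and 1.69. The mean difference of 0.60 ± 1.53 (SE; limma, adjusted p = 0.986; 95% confidence interval -2.88 to 4.08) did not pass. On the ratio scale this is 1.52, with an interval of 0.136 to 16.9. The two-sided exact permutation p was 0.7, and the authors' deposited table gives a fold change of 1.52 and a paired p of 0.438 for miR-210. The value rests on single samples. Leaving out DC-primed sample 3 turned it to -1.09, leaving out B cell-primed sample 1 brought it to -1.36e-05, and leaving out both samples of round 3 gave 0.06.

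The raw Ct of miR-210 was also earliest in round 3 in both groups. It was 29.47, 32.71 and 29.15 in DC-primed samples 1, 2 and 3, against 30.23, 30.90 and 28.01 in B cell-primed samples 1, 2 and 3. In DC-primed sample 3 miR-210 came up earliest within its group, although the median tested assay of that sample was the latest, at 31.17 against 26.44 and 28.82 in DC-primed samples 1 and 2. In B cell-primed samples 1, 2 and 3 the median was 26.90, 27.74 and 27.90.

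**Figure D2:**
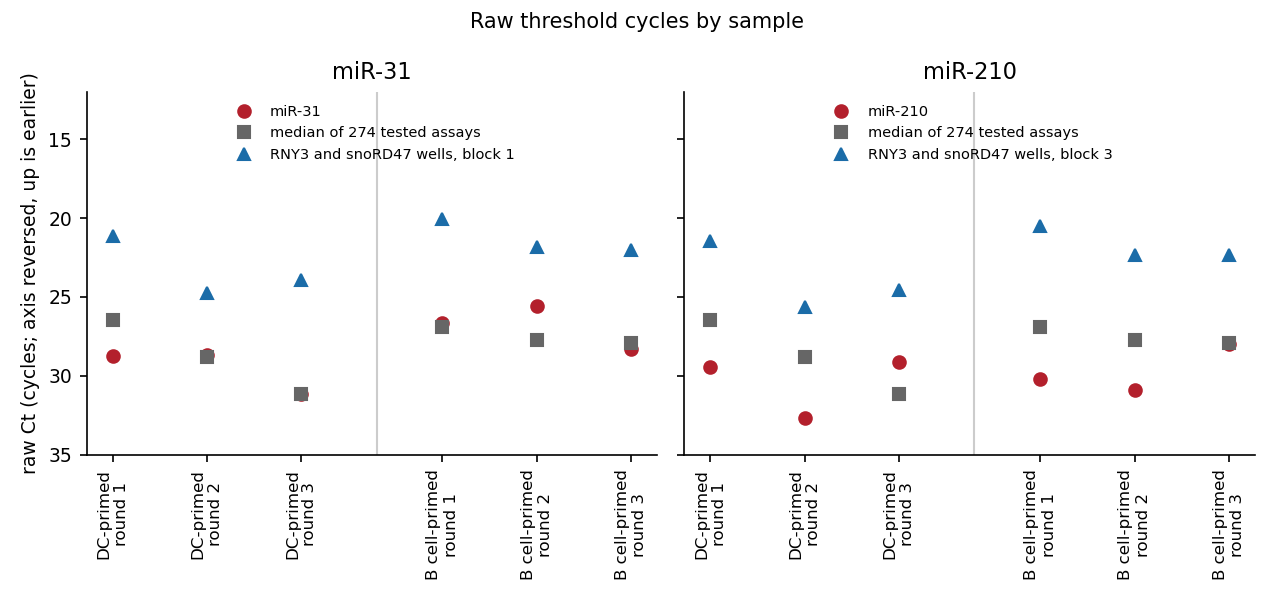
Raw Ct (cycles, y axis reversed so that earlier is higher) of miR-31 and miR-210 in each DC-primed and B cell-primed sample, beside the median Ct of the 274 tested assays and the mean of the RNY3 and snoRD47 wells in the same block of rows. miR-31 is at 28.70 or later in DC-primed and at 28.33 or earlier in B cell-primed samples, and it lies beside the median in DC-primed samples 2 and 3.

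The spread of miR-210 within each group was among the widest of the panel. Its SD was 2.97 over the DC-primed samples, where 10 of 274 assays had a larger one and the median was 1.20, and 1.99 over the B cell-primed samples, where 7 had a larger one and the median was 0.63. miR-31 had an SD of 1.22 in DC-primed samples, with 132 assays above it, and 1.21 in B cell-primed samples, with 36 above it. The order of levels within a sample, which needs no scaling, also placed miR-210 highest in sample 3 of each group. miR-210 was placed 223rd, 260th and 66th of 274 in DC-primed samples 1, 2 and 3 and 256th, 250th and 139th in B cell-primed samples 1, 2 and 3. miR-31 was placed 196th, 132nd and 138th in DC-primed samples 1, 2 and 3 and 124th, 80th and 146th in B cell-primed samples 1, 2 and 3. These places compare 1 assay between samples and are not an order of molecule numbers.

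Round 3 stood apart for miR-210 in both groups. Its level in round 3 exceeded the mean of rounds 1 and 2 by 5.08 in DC-primed T cells and by 3.45 in B cell-primed T cells, against medians over the tested assays of 0.28 and 0.07. It was placed 2nd of 274 in the DC-primed group and 3rd in the B cell-primed group, and these places were the same on the 3 other scales that can change them, the own-block ones and quantile normalization. The assays above it were the human-named miR-424*, at 8.04 in the DC-primed group and 7.33 in the B cell-primed group, and, in the B cell-primed group only, miR-92a, at 3.75 (DC-primed) and 4.59 (B cell-primed). For miR-31 this difference was 0.68 in the DC-primed group and -1.35 in the B cell-primed group.

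Positions in the deposited Ct table are given beside this pattern. The rows of that table fall into 4 blocks of 94, each with its RNY3 and snoRD47 wells in the same places, 12 rows apart. miR-210, miR-92a and the human-named miR-424* are rows 8, 6 and 2 of block 3. Of all 345 assays, 6 differed by 3 or more the same way in both groups between round 3 and the earlier rounds. All 6 lie in the first 8 of the 94 rows of their block. Of these 6, 4 are in block 3, where this window ends at the row of miR-210 itself. The fourth is miR-299*, in row 1, at -4.57 in the DC-primed group and -4.67 in the B cell-primed group, which was not among the tested assays. The rest of the 6 are miR-30a, in row 7 of block 1 and also not tested, and miR-23a, in row 5 of block 2. The values of miR-23a differ between the deposited tables. Among the other rows of that window in block 3, miR-378 in row 3 differed by 1.34 and 2.66 in DC-primed and B cell-primed cells. In the same window miR-491, miR-668 and miR-186 in rows 4, 5 and 7 differed by less than 1. The labels do not say what the blocks are. The part of row position in the miR-210 values was not tested, and miR-31 lies in block 1, row 19.

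**Figure D3:**
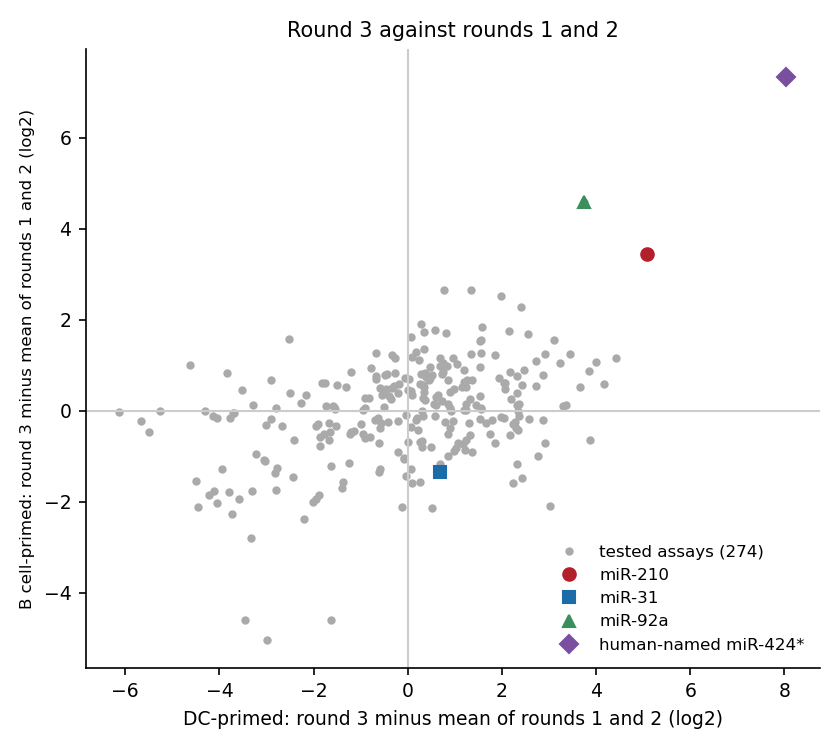
Level in round 3 minus the mean of rounds 1 and 2 (log2) in DC-primed cells (x axis) and B cell-primed cells (y axis), 1 point for each of 274 tested assays. miR-210 lies at 5.08 and 3.45, beside miR-92a and the human-named miR-424*, which share the first rows of its block, and miR-31 lies among the other assays.

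The blocks also bear on scaling to the small RNAs RNY3 and snoRD47. Block 4 gave Ct values for them 4.89 to 8.77 cycles later than blocks 1 to 3 in every sample. Within a block the paired wells lay within 1.12 cycles of each other, except for snoRD47 in block 4, where the gap reached 7.65. Each member was therefore also set against the 4 wells of its own block, an alternative chosen after the data were seen.

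On that own-block scale miR-31 was lower and miR-210 higher in the DC-primed sample of every round. miR-31 differed by -1.03, -0.26 and -0.98 in rounds 1, 2 and 3, with means of -6.29 ± 2.02 in DC-primed T cells and -5.53 ± 1.59 in B cell-primed T cells (SD, n = 3 each). The mean difference was -0.76 ± 1.53 (SE; limma, adjusted p = 0.89). Of 274 assays 9 (3.28%) were lower in every round on this scale. miR-210 differed by 1.74, 1.51 and 1.08, with means of -6.54 ± 1.77 in DC-primed T cells and -7.98 ± 2.11 in B cell-primed T cells. The mean difference was 1.45 ± 1.53 (SE; limma, adjusted p = 0.816), and 92 assays (33.6%) were higher in every round. The median of all tested assays was itself 1.07 higher in DC-primed cells on this scale. Relative to that shift miR-31 lay at -1.83 and miR-210 at 0.38, and neither passed the test.

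The sign of the mean difference did not depend on the scale for miR-31 and did for miR-210. The miR-31 mean difference was below 0 under all 8 scales, from -2.86 relative to the cel-mir-67 wells and -2.70 without normalization to -0.15 relative to all RNY3 and snoRD47 wells. Every round was below 0 for miR-31 only on the authors' dCt, without normalization and on the own-block RNY3 and snoRD47 scale. On each other scale a round was above 0, such as round 2 at 0.67 relative to all RNY3 and snoRD47 wells. miR-210 was at -0.89 relative to the cel-mir-67 wells and -0.73 without normalization, and at 0.57 to 1.83 on the other scales. The median over all tested assays moved with the scale, from -1.42 relative to cel-mir-67 and -1.26 without normalization to 1.30 relative to all RNY3 and snoRD47 wells. Relative to that median, miR-31 was at -1.83 to -1.19 and miR-210 at 0.38 to 0.96 over the 8 scales. Scales that subtract 1 number per sample give the same value here by construction, -1.445 for miR-31 and 0.528 for miR-210. Only the own-block scales and quantile normalization can change it.

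**Figure D4:**
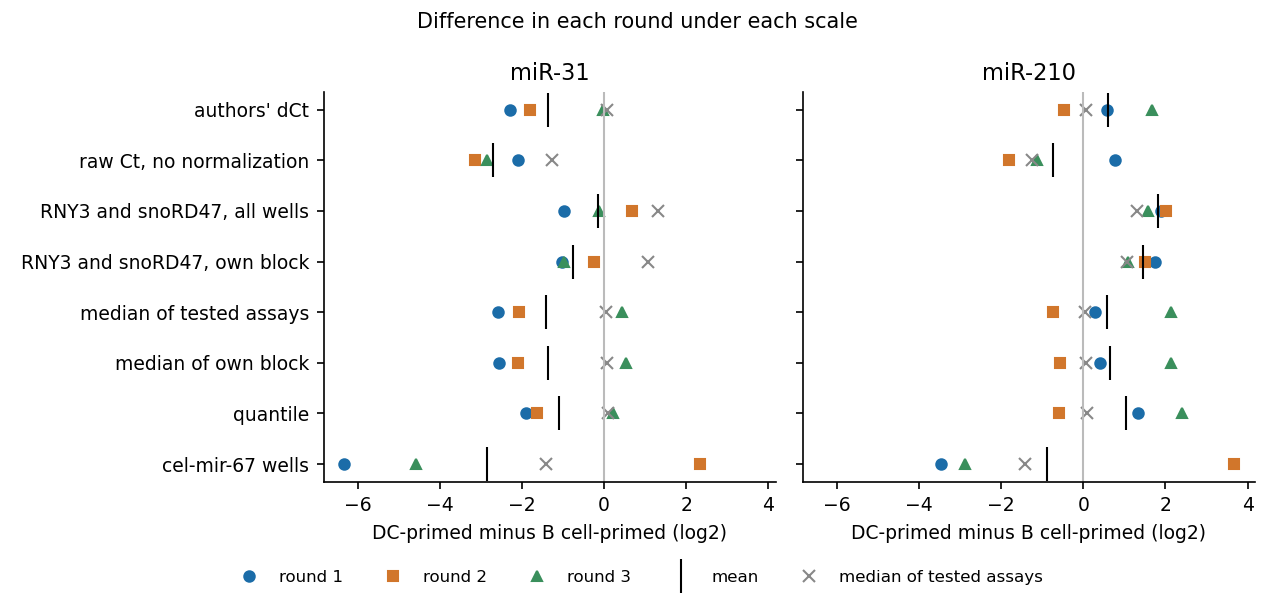
DC-primed minus B cell-primed difference (log2, x axis) of miR-31 and miR-210 in each round under 8 scales (rows), with the mean of the 3 rounds as a bar and the median of all tested assays as a cross. The miR-31 mean is below 0 in every row, and the miR-210 mean is below 0 for raw Ct and for the cel-mir-67 wells.

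Setting the members against each other removes any per-sample number, but not differences between blocks within a sample. miR-31 lies in block 1 and miR-210 in block 3, and the round 3 values of miR-210 also enter this comparison. miR-31 minus miR-210 was 0.73, 4.01 and -2.03 in DC-primed samples 1, 2 and 3, against 3.60, 5.35 and -0.32 in B cell-primed samples 1, 2 and 3. It was lower in the DC-primed sample of every round, by 2.87, 1.34 and 1.71, but the ranges of the groups overlapped. Means were 0.90 ± 3.02 in DC-primed T cells and 2.88 ± 2.90 in B cell-primed T cells (SD, n = 3 each), a difference of -1.97. In both groups round 3 had the lowest value and round 2 the highest. No test is given, since the pair was chosen with earlier results of these data known.

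The other assays with levels most like those of miR-31 over the 6 samples were the human-named miR-196a (Pearson r = 0.82), miR-23b (0.82), the human-named miR-301b (0.80), miR-181d (0.76) and miR-377 (0.76). Those least like it were miR-221 (-0.93) and miR-200b (-0.88). For miR-210 the most alike were the human-named miR-424* (0.98) and miR-508-5p (0.95), miR-92a (0.93), miR-200c* (0.88) and miR-34a (0.87), and the least alike were let-7f (-0.95) and let-7a (-0.93). These are the extremes of a search over all tested assays with 6 samples each, and within a sample all assays share the subtracted number. The 2 deposited tables disagree for miR-23b, so its place depends on the dCt table.

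Among microRNAs reported to rise when lymphocytes are activated, 21 of 25 were tested, with 11 on the higher side in DC-primed cells (background 53.3%) and 10 on the lower side, and 0 passed the adjusted threshold (background 0%). An unadjusted p under 0.05 was given to 2 higher members (background 1.46%) and 4 lower ones (background 7.3%). The median difference was 0.37, against 0.07 over all tested assays. The range ran from miR-18a, of the proliferation-linked miR-17/miR-92a cluster, at -3.62 ± 1.22 (SE) to miR-147, which Toll-like receptor signalling induces in macrophages, at 3.25 ± 1.17. In that order miR-31 was 9th from the lowest and miR-210 14th. miR-155, which CD8+ T cells need to expand and become effectors, was at 0.37 ± 1.43 and miR-21 at 3.19 ± 1.26. The other tested miRNAs of that cluster were also on the lower side, miR-19b at -2.92, miR-20a at -2.47, miR-17 at -2.13 and miR-19a at -1.59, except miR-92a at 0.80 ± 1.49, which lies beside miR-210 in block 3. Of the 21 members 7 were lower (background 12.8%) and 5 higher (background 12.8%) in every round, and miR-31 is counted among the 7 only by its round 3 difference of -0.02, and miR-210 is in neither count.

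Among microRNAs reported to rise under low oxygen in human cell lines, 13 of 14 were tested, and 7 had higher (background 53.3%) and 6 lower means in DC-primed cells. Of these 0 passed the adjusted threshold and 2 had an unadjusted p under 0.05 (background 8.76%). The median difference was 0.29, against 0.07 over all tested assays, and it was the same to 2 decimals, 0.29, without miR-23a and miR-23b, whose values differ between the deposited tables. miR-210, the member most firmly tied to hypoxia-inducible factors, was 9th from the lowest at 0.60. Below it lay miR-23a at -3.42 ± 1.52 (SE), miR-23b at -3.12 ± 0.82, miR-27b at -1.30, miR-103 at -0.77, miR-26b at -0.32, miR-27a at -0.21, miR-24 at 0.29 and miR-181c at 0.29. Above it lay miR-21 at 3.19, miR-181a at 1.31, miR-181b at 1.17 and miR-26a at 0.68. The miR-23a and miR-23b differences, the lowest of this list, depend on the dCt table, which disagrees with the Ct table for both. miR-107 was not tested, having no Ct in DC-primed sample 3.

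**Figure D5:**
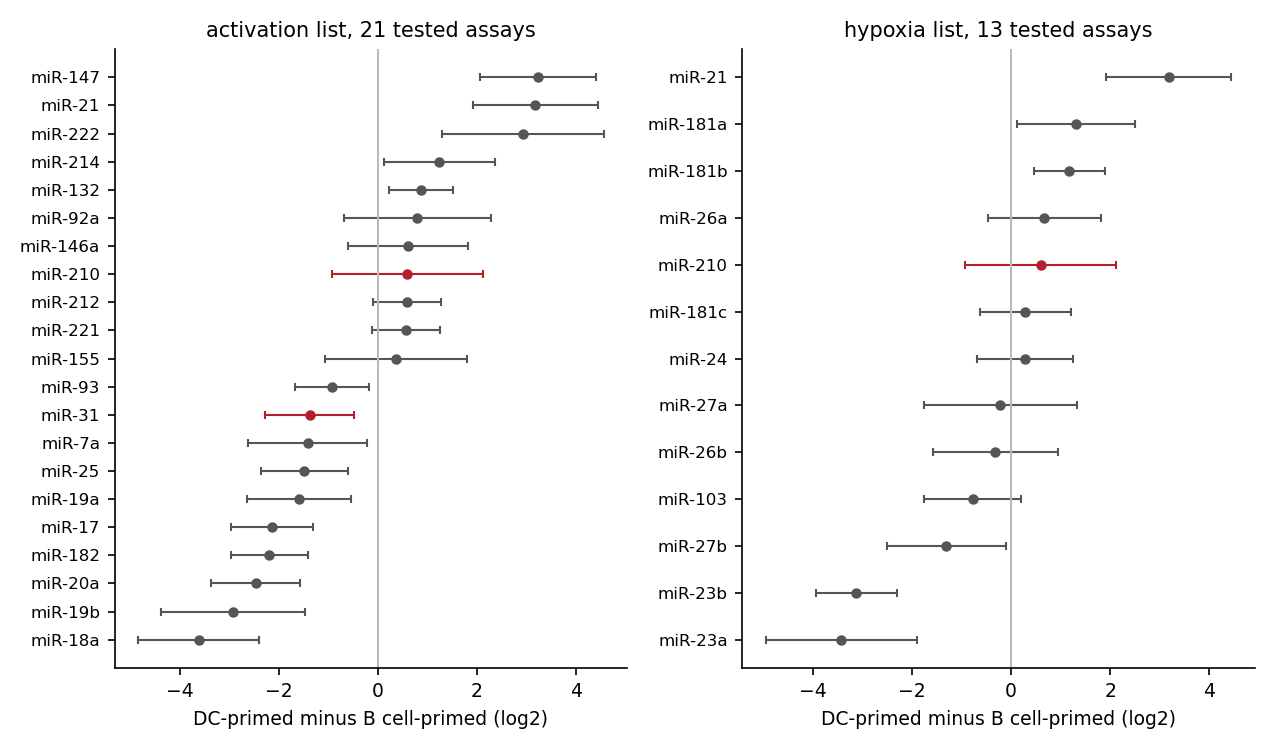
DC-primed minus B cell-primed difference (log2, x axis, with limma's SE as bars) for the tested members of the activation list and of the hypoxia list, each in order of size, with miR-31 and miR-210 in red. Members lie on both sides of 0 in each list, miR-31 among the lower and miR-210 among the higher.

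Markers of the priming cells are given beside these values. All 5 tested assays of the myeloid and dendritic list had higher means in DC-primed cells (background 53.3%). Their median difference was 2.53, against 0.07 over all tested assays; 0 passed the adjusted threshold, and 2 had an unadjusted p under 0.05 (background 8.76%). The summed level of its 8 assays, as 2 to the power of the level, was 34.2 to 314 in DC-primed and 8.17 to 79.5 in B cell-primed samples. However, miR-142-3p makes up most of this sum in DC-primed sample 3 and in every B cell-primed sample. In DC-primed sample 3 miR-142-3p has no Ct and the authors' dCt is filled in. Without miR-142-3p the sum was 175, 28.2 and 4.21 in DC-primed samples 1, 2 and 3, against 3.40, 9.32 and 3.12 in B cell-primed samples 1, 2 and 3, so DC-primed sample 3 lay within the B cell-primed range. miR-223, the defining myeloid member, was at 5.36, 1.23 and -6.53 in DC-primed samples 1, 2 and 3, against -5.79, -5.32 and -5.04 in B cell-primed samples 1, 2 and 3, so it was high in DC-primed samples 1 and 2 only, and its Ct of 36.99 in DC-primed sample 3 was past the limit. The 3 assays of the B cell list, of which 0 passed and 0 had an unadjusted p under 0.05, had a median difference of 0.80 and summed levels of 18.8 to 49.7 in DC-primed and 11.5 to 18.1 in B cell-primed samples. miR-150 is shared with lymphocytes in general, so this list does not mark B cells alone. The part of these priming-cell markers in the miR-31 and miR-210 values was not tested.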

How the data were processed

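Per the labels' protocols, RNA was extracted with the mirVana kit, treated with DNase I and tailed with poly(A), and PCR used a forward primer specific to each miRNA with a common reverse primer. Per the file headers, the deposited tables give the raw Ct and the authors' dCt, a log2 scale made by subtracting the geometric mean of each sample's Ct values. The file names of these tables say the opposite of the headers, which were followed. For miR-31 and miR-210 the Ct and dCt tables gave the same values (within 0.02 cycles). The authors' p-value comes from a paired comparison of dCt over the rounds, and their fold change is a ratio with DC-primed on top, per the file headers. The instrument is not given in the sources used here.

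Assays with Ct below 35 in all 6 samples (274) were tested with limma 3.58.1 in R 4.3.3 (no trend, no block, two-sided, Benjamini-Hochberg adjustment over all 274, threshold 0.05). The code was checked on simulated data with large known changes. Recovery was required there only at noise below that of these samples, so the check does not measure power in these data. SE and intervals are limma's. Groups and rounds come from the sample titles. Same-round deviations from the group means correlated across assays at 0.16, 0.14 and 0.46, all over 0.1, and samples of 1 round were paired for differences by round. The different-round pair of DC-primed 1 and B cell-primed 2 reached 0.33, above 2 of these, and the other 5 were below 0. The members and lists were chosen with earlier results of these data known. Named assays are the members, the other strand, the 5 most and 2 least alike, and list members. miR-223, miR-299*, miR-378, miR-491, miR-668 and miR-186 were added after their values were seen. Alternatives were other scales, Ct limits, the block, a variance trend and left-out samples. Figures used matplotlib 3.10.9 in Python 3.11.15. Sequences are from RefSeq, where both members matched.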

Additional observations from a re-analysis of the deposited data

How the results depend on the processing

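Neither member passed limma's adjusted threshold of 0.05 under any alternative run, with adjusted p from 0.545 to 1.00 for miR-31 over 21 fits. For miR-210 they were 0.712 to 1.00 over 20 fits. miR-31 stayed below 0 in all 23 alternatives, but not all of these could change its value. The other Ct limits, no Ct limit, the block, the variance trend and the authors' comparison keep -1.37 by construction. Leaving out 1 sample in turn gave -1.84 to -0.68 for miR-31 and -1.09 to 1.75 for miR-210. miR-210 was below 0 without DC-primed sample 3 and, at -1.36e-05, without B cell-primed sample 1. It also turned without normalization (-0.73) and relative to the cel-mir-67 wells (-0.89), 4 of its 22 alternatives in all. The cause was not tested. Where miR-210 was tested, the settings that fix the miR-31 value also keep miR-210 at 0.60 by construction. With the round as a block the values were unchanged at -1.37 (SE 0.81, adjusted p = 0.55) and 0.60 (SE 0.80, adjusted p = 0.921), and the block changed no call. With a Ct limit of 32 miR-210 was not tested. The miR-31 minus miR-210 difference of -1.97 ranged from -3.57 to -0.51 without 1 sample. limma called 0 assays in every setting except without DC-primed sample 3, where it called 2, neither of them a member. The count of assays differing by 1 or more with the same sign in every round was 50 (20 higher, 30 lower). It was 101 without normalization (0 higher, 101 lower), 101 relative to all RNY3 and snoRD47 wells (97 higher, 4 lower) and 28 at a Ct limit of 32 (13 higher, 15 lower). With 3 samples a group, the intervals of miR-31 and miR-210 span 4.11 and 6.97 units.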

Other observations

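The C. elegans assay cel-mir-67, read in 9 wells of each sample, had mean Ct values of 18.9, 25.1 and 17.6 in DC-primed samples 1, 2 and 3, against 23.2, 19.6 and 19.3 in B cell-primed samples 1, 2 and 3. The labels do not say whether it was added to the RNA. Relative to it, the miR-31 differences by round were -6.32, 2.34 and -4.59, and those of miR-210 were -3.45, 3.68 and -2.88.

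The human-named miR-424*, the assay most like miR-210, had raw Ct values of 25.58, 28.19 and 21.98 in DC-primed samples 1, 2 and 3, against 27.64, 28.24 and 21.50 in B cell-primed samples 1, 2 and 3. The earliest value of each group was again that of round 3. Outside block 3, miR-30a in row 7 of block 1 was higher in round 3 by 16.4 in the DC-primed group and 17.8 in the B cell-primed group, and miR-23a in row 5 of block 2 was lower, at -3.46 and -4.60. miR-30a did not have a Ct below 35 in all 6 samples and was not tested. The miR-23a values depend on the dCt table, since the deposited tables disagree for it.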
